A study of Homo sapiens with 60 samples.

Results

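Hemin-treated spheroids were compared with untreated spheroids in the medium that the labels call Medium 1. The comparison takes 5 libraries of each group, chosen by the treatment and medium in their column names, which is 10 of the 60 libraries of the series. Those names place the untreated libraries in wells A1 to E1 and the hemin libraries in wells C2 to G2. Treatment and plate column therefore cannot be told apart. Hemin was present at 0.1 µM from day 1 to day 8 after seeding, and the untreated spheroids received no compound. HCT116 is an established human colorectal cancer cell line with epithelial features, so every library comes from the same line. All spheroids formed in agarose wells and grew in high-glucose DMEM with serum, antibiotics and non-essential amino acids. The other 50 libraries hold butyrate, kynurenine, kynurenic acid and hemin plus kynurenine in Medium 1, and the same 6 treatments in Medium 2. The study design includes 3 h in a nutrient-deprived medium before RNA extraction for part of the spheroids, but the labels do not say which medium that is. Titles call the 5 samples of a group biological replicates, and nothing used here says whether they were separate cultures, so a p-value here covers no more than the spread among libraries.

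Hemin is the oxidised, iron-carrying ring of haemoglobin and of red meat. Cells take up free heme and break it down with heme oxygenase, encoded by HMOX1, into iron, carbon monoxide and biliverdin. Heme binds the repressor BACH1 and promotes its removal from DNA and its degradation, which releases HMOX1 and a part of the antioxidant genes that NRF2 drives. Heme also represses its own first synthetic step, encoded by ALAS1. Iron freed from heme enters ferritin, made of FTH1 and FTL, and a rise in free iron lowers the stability of the TFRC transcript, which encodes the transferrin receptor. These are general features of heme handling in animal cells and not results of these libraries.

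The libraries are 3' end counts with molecular identifiers, so each gene's level is given in CPM, which is counts scaled to a common library total, and levels of different genes are not compared. Totals lay between 1563678 and 2545112 counts in hemin libraries and between 1600863 and 2158847 in untreated libraries. The mean total was 271804 counts higher with hemin (exact permutation test, two-sided p = 0.246, with 0.00794 the smallest p that 5 against 5 allows). Epithelial markers of the line were present in every library, with a sum of 1847 to 2087 CPM in hemin libraries and 1923 to 2138 CPM in untreated libraries. Markers of erythroid cells summed to 4.15 to 7.95 CPM with hemin and 4.62 to 5.45 CPM untreated. Those of fibroblasts summed to 6.92 to 12.1 and 5.85 to 12.7 CPM, with COL1A2, COL3A1, DCN, LUM, THY1 and FAP at 0 in all 10 libraries. Immune markers reached at most 4.28 CPM with hemin and 4.52 CPM untreated, and endothelial markers 1.14 and 1.03 CPM.

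The 5 hemin libraries were not alike, and this stands before every result that follows. For each library, the mean difference in log2 CPM from the untreated mean was taken over 620 genes that were higher and 584 that were lower with hemin when the library of well G2 was left out. These means describe the libraries and are no test, since the genes were chosen on them. Over the higher genes the means were 0.747, 0.728, 0.412 and 0.640 in the hemin libraries of wells C2, D2, E2 and F2, and 0.005 in that of G2. The untreated libraries lay between -0.095 and 0.109. Over the lower genes the means were -0.753, -0.904, -0.547 and -1.03 in C2, D2, E2 and F2, -0.135 in G2, and between -0.163 and 0.141 in untreated libraries. Thus G2, which carries the same hemin label, lay among or beside the untreated libraries for both sets. Its log2 CPM correlated at 0.956 to 0.968 with the untreated libraries across genes and at 0.936 to 0.958 with the other hemin libraries. The other 4 hemin libraries correlated at 0.943 to 0.974 among themselves, lowest for F2 with C2 and with E2, so their range overlaps that of G2.

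The same genes also stood out in libraries without hemin alone. The butyrate library of well B2 in Medium 1, next to C2 on the plate, had means of 0.873 over the higher set and -0.834 over the lower set. Compared with the other 4 butyrate libraries, it was higher in 597 of the 620 genes (96.3%) and lower in 537 of the 584 (91.95%), while 51.1% of all genes tested were higher in it. The hemin plus kynurenine library of well F4 had means of 0.567 and -0.813, and was higher in 608 genes (98.1%) and lower in 565 (96.7%) than the other 4 of its group. Over the remaining 48 libraries outside the comparison the means ran from -0.171 to 0.515 and from -0.782 to 0.193, the lower set reaching its lowest mean in the kynurenine library of well A7 in Medium 2. Some of these leaned the same way within their groups, with means nearer to 0 than those of B2 and F4. A few went beyond the hemin library E2, which had 0.412 and -0.547. In the higher set these were kynurenic acid library G7 (0.491) and hemin plus kynurenine library H7 (0.515), both of Medium 2. In the lower set they were A7 and the butyrate library G1 of Medium 1 (-0.594). The kynurenic acid library F3 of Medium 1 was higher in 575 genes (92.7%) and lower in 545 (93.3%) than the other 4 of its group. For the kynurenic acid library G7 of Medium 2 the counts were 555 (89.5%) and 520 (89.0%). The 5 hemin libraries of Medium 2 lay between -0.009 and 0.160 and between -0.120 and 0.066. The share of deposited values that are not whole numbers, over genes tested, was 21.3%, 20.9%, 21.9% and 22.7% in C2, D2, E2 and F2 and 24.6% in G2, against 23.5% to 25.6% in untreated libraries. It was 18.8% in B2 and 21.7% in F4. The part that these library differences have in the results below was not tested.

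**Figure D1:**
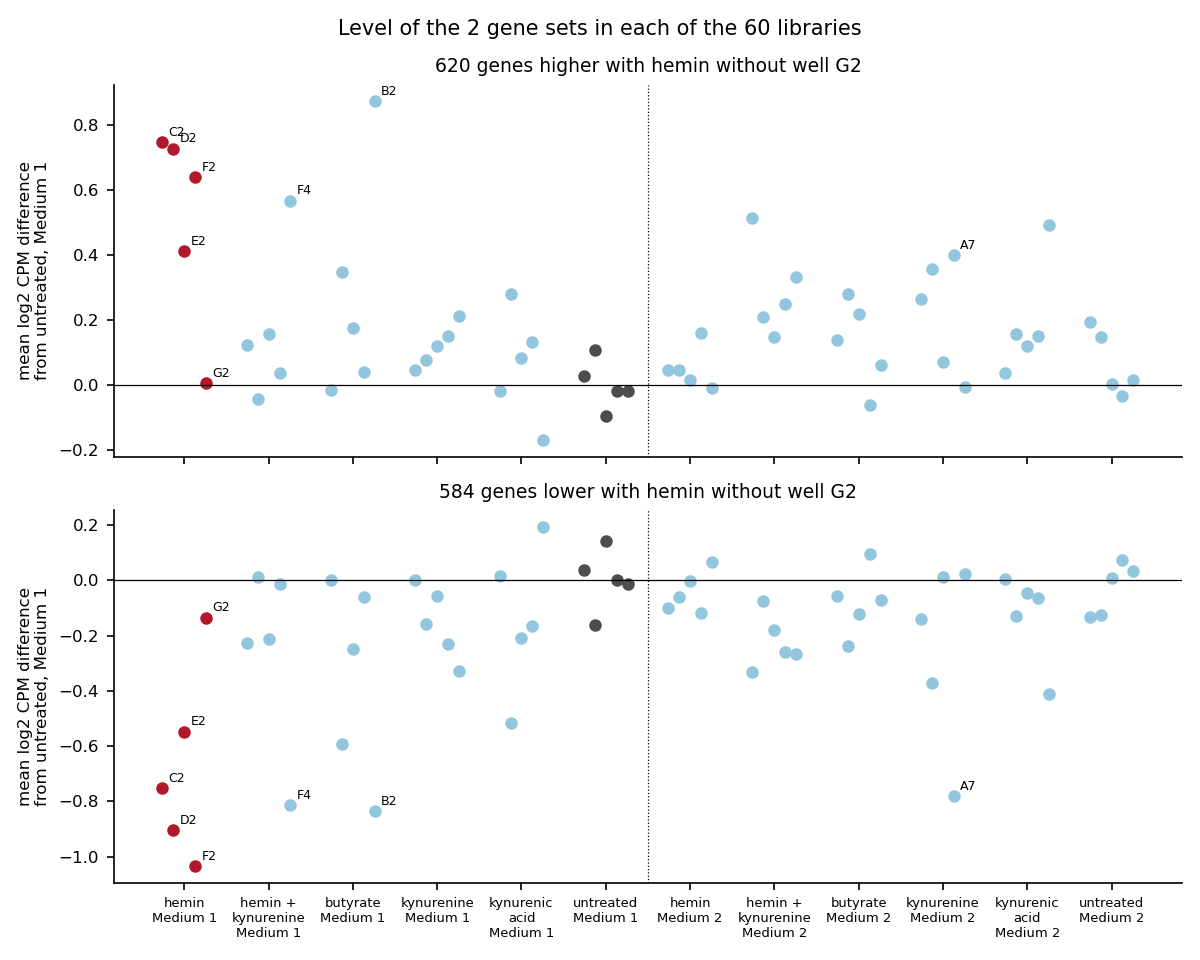
Mean difference in log2 CPM from the untreated libraries of Medium 1 (y axis) in each of the 60 libraries, for the 620 genes higher (top) and 584 genes lower (bottom) with hemin when well G2 is left out. Each point is 1 library, by treatment and medium along the x axis. Hemin libraries C2 to F2 lie between 0.412 and 0.747 in the top panel while G2 lies at 0.005, and B2 of butyrate and F4 of hemin plus kynurenine lie with C2 to F2.

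With all 5 hemin libraries, 5 genes were higher and 10 lower than in untreated spheroids at an adjusted p under 0.05, of 11298 tested (0.0443% and 0.0885%, or 0.133% in all, quasi-likelihood test of edgeR, adjusted after Benjamini and Hochberg over all genes tested, as is every adjusted p here). At an unadjusted p under 0.05 there were 1172 higher and 1253 lower genes. Without G2, 620 genes were higher and 585 lower of 11395 tested (5.44% and 5.13%, or 10.6% in all). All 15 genes were also called without G2, in the same direction, and all 1204 genes called without G2 that were tested with all libraries had the same direction there. Both fits share every library but G2, so this agreement is no separate support. The count also changed with each of the other libraries. It came to 0 without C2, D2, A1, C1 or E1, to 1 (SWI5) without F2, to 2 (SWI5 and CYP51A1) without D1, to 86 without E2 and to 162 without B1. With G2 already left out, it came to 225 without D2, 541 without C1, 550 without C2 and 608 without F2, and to between 800 and 1511 without any of the other 5. Fitted without B2 and F4, the model called 696 genes with G2 and 1602 without it, and it called 0 when only Medium 1 libraries were fitted. The main gene results below are therefore given with all 5 hemin libraries and without G2. Many genes of the lists have only the value without G2, and of these lists CYP51A1 alone passed with all libraries. Some of the 15 genes have only the value with all libraries.

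**Figure D2:**
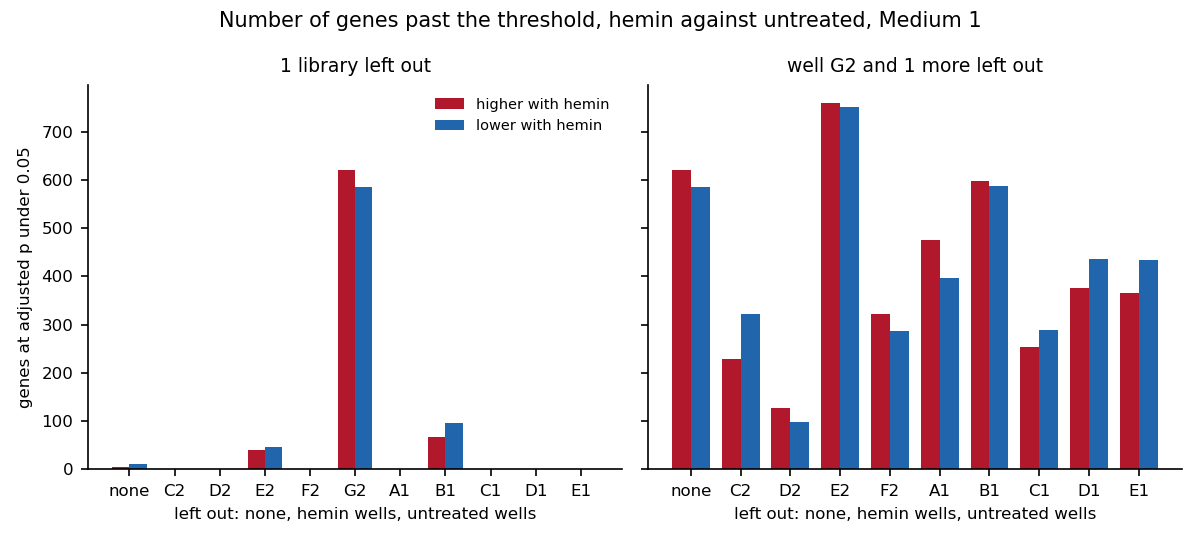
Number of genes at an adjusted p under 0.05 (y axis), higher or lower with hemin, when no library, 1 hemin library or 1 untreated library is left out (left) and when G2 and 1 more are left out (right). Leaving out G2 gives 620 higher and 585 lower genes, against 5 and 10 with all libraries, and leaving out D2 beside G2 gives 127 and 98.

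The groups did not overlap, with all 5 hemin libraries above all 5 untreated ones, in 134 genes (1.19% of those tested), and lay wholly below in 248 (2.2%). For the 4 hemin libraries without G2 the counts were 745 (6.59%) and 778 (6.89%). Among the 1205 genes called without G2, 429 had these 4 libraries above all untreated ones, and G2 was above them too in 63. In 436 the 4 lay below, and G2 did so too in 137. These genes were called in a fit without G2, so its lag behind the other 4 is partly set by that choice. Over all genes tested, G2 was also above in 134 of the 745 and also below in 248 of the 778. The median log2 fold change over all genes tested was -0.02 with all libraries and -0.02 without G2.

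Of the 5 genes that were higher with all libraries, SWI5, a partner in the repair of DNA breaks by homologous recombination, had the largest fold change. It had 15.6, 18.2, 13.4, 9.17 and 15.02 CPM in hemin libraries C2, D2, E2, F2 and G2, against 3.41, 7.24, 3.06, 7.26 and 6.67 CPM in untreated libraries A1 to E1. The groups did not overlap and G2 was among the high libraries. The log2 fold change was 1.37 (SE 0.27, adjusted p = 0.0230), and 1.36 without G2 (adjusted p = 0.00476). The call with all libraries was lost in 6 of 22 alternatives, which were only Medium 1 fitted and leaving out C2, D2, A1, C1 or E1. DESeq2 is not among the 22, because it gave SWI5 no adjusted p. It called 14 of the 15 genes, and SWI5 was the one not called. SWI5 lies on chromosome 9 at 128275356 to 128288989 (GRCh38.p14).

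CYP51A1 encodes a heme-containing cytochrome P450 that removes a methyl group from lanosterol on the way to cholesterol. It had 172, 163, 207, 133 and 203 CPM in hemin libraries, against 278, 225, 273, 251 and 284 CPM in untreated ones. All 5 hemin libraries, G2 included, lay below all 5 untreated libraries. On the log2 scale the change was -0.58 (SE 0.11, adjusted p = 0.0230), and -0.63 without G2 (SE 0.12, adjusted p = 0.00311). The gene lies on chromosome 7 at 92112153 to 92134803 (GRCh38.p14). The call with all libraries was lost in 8 of 23 alternatives, which were the plate row term, only Medium 1 fitted, and leaving out C2, D2, F2, A1, C1 or E1. Without G2 it held in all 16 alternatives tried for that comparison. Robust dispersion, the plate row term, thinning and a fit of Medium 1 alone were not among these, here or for the genes below.

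The other 4 genes that rose have housekeeping roles. NOP9, which takes part in ribosomal RNA processing, had 67.9, 73.7, 45.7, 86.2 and 38.3 CPM with hemin, against 35.1, 28.5, 28.1, 35.7 and 26.7 CPM untreated, a log2 fold change of 1.02 (adjusted p = 0.0468) and of 1.15 without G2 (adjusted p = 0.00371). CETN3, a centrin of the centrosome, had 406, 452, 340, 491 and 200 CPM with hemin, against 201, 226, 213, 207 and 219 CPM untreated. G2 was the lowest of the 10 libraries for CETN3, so the fold change of 0.83 (adjusted p = 0.0468) rests on the other 4, and it was 0.99 without G2 (adjusted p = 0.00311). NMT1, which attaches myristate to proteins, and SRP72, a subunit of the signal recognition particle, had log2 fold changes of 0.57 and 0.40 (adjusted p = 0.0468 for both), and their groups did not overlap. With all libraries, the calls of these 4 genes were lost in 10 of 23 alternatives, or 11 for NOP9. Robust dispersion and the plate row term were among them for each gene.

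Besides CYP51A1, 9 genes fell. PDE9A, a phosphodiesterase of cyclic GMP, had 9.15, 9.61, 8.77, 6.11 and 21.8 CPM with hemin, against 21.9, 21.3, 39.1, 36.3 and 34.9 CPM untreated. G2 overlapped the untreated range while the other 4 lay far below it, and the log2 fold change was -1.46 (adjusted p = 0.0461) with G2 and -1.82 (adjusted p = 0.00311) without. ACSL1, which activates long-chain fatty acids, had 7.24, 8.19, 14.3, 12.8 and 15.5 CPM with hemin, against 37.5, 15.8, 29.95, 30.9 and 33.3 CPM untreated, a log2 fold change of -1.36 (adjusted p = 0.0468). The untreated library B1 was nearly as low as the highest hemin library. PRNP, the prion protein, had 155, 142, 210, 153 and 238 CPM with hemin, against 321, 244, 328, 260 and 296 CPM untreated, a log2 fold change of -0.69 (adjusted p = 0.0468). With all libraries, the calls of these 9 genes were lost in 10 to 12 of 23 alternatives each. The plate row term was among them for every gene, and robust dispersion for all but PDE9A.

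The remaining 6 were VPS37A of the endosomal sorting complex, NGFRAP1 (now BEX3), WDR61 (now SKIC8) of the Ski and PAF complexes, the RNA-binding protein gene UNK, NAA20, the catalytic subunit of an N-terminal acetyltransferase, and PGAM4. Their log2 fold changes were -0.70, -0.55, -0.72, -1.04, -0.58 and -1.71 with all libraries (adjusted p = 0.0468 for each), and the groups did not overlap for VPS37A, NGFRAP1, WDR61 and NAA20. PGAM4 is a near-identical copy of PGAM1, and how reads of such copies were shared out is not given in the sources used here, and its value is uncertain. PGAM1 itself had a log2 fold change of -0.04 (adjusted p = 0.874).

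**Figure D3:**
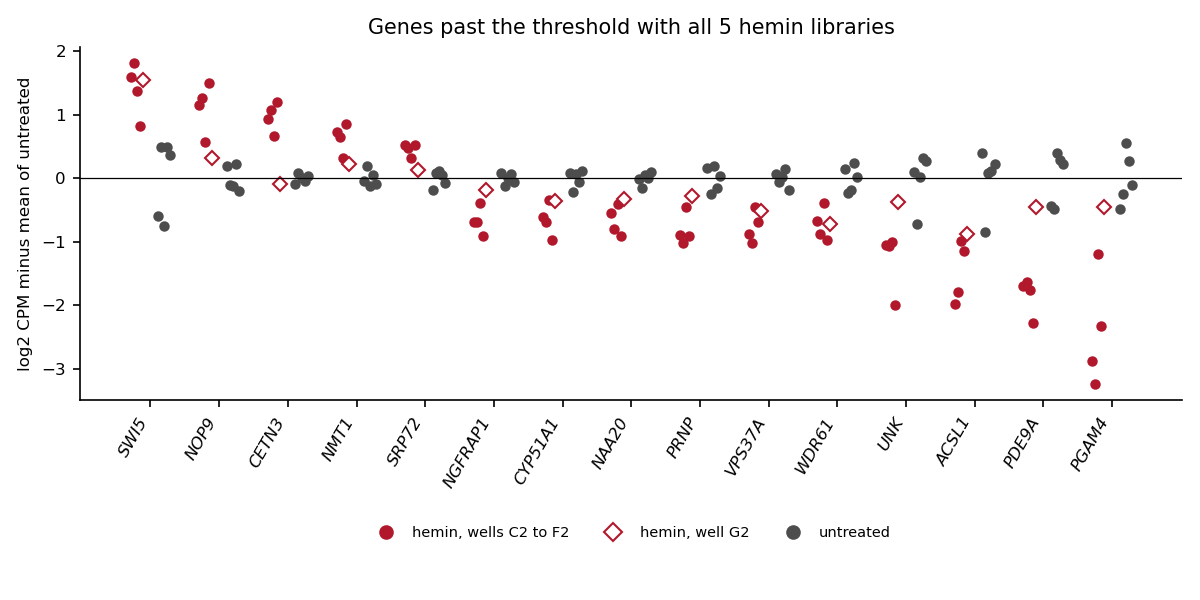
Level of the 15 genes past the threshold with all 5 hemin libraries, as log2 CPM minus the mean of the untreated libraries (y axis). Hemin libraries are on the left of each gene, with G2 as an open diamond, and untreated libraries on the right. G2 lies with the other hemin libraries for SWI5, CYP51A1, VPS37A and WDR61, and with the untreated libraries for CETN3.

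Among 8 genes of heme breakdown and export tested, 2 were higher and 0 lower without G2, beside 5.44% higher and 5.13% lower over all genes tested, and CYP51A1 was the gene of all lists described here that passed with all libraries. HMOX1 did not pass either way. It had 54.1, 55.6, 44.3, 47.1 and 30.04 CPM in hemin libraries, against 44.9, 31.7, 27.5, 34.5 and 37.95 CPM in untreated libraries. The hemin library G2 was lower than 4 of the 5 untreated libraries, E2 was just below A1, and C2, D2 and F2 were the highest. The log2 fold change was 0.39 (SE 0.20, adjusted p = 0.235) and 0.51 without G2 (SE 0.20, 95% interval 0.11 to 0.91, adjusted p = 0.0832). In B2 of butyrate it was at 70.9 CPM, above every hemin library, and in F4 at 58.7 CPM. BLVRB, which reduces biliverdin, had 80.0, 80.1, 54.5, 74.6 and 49.2 CPM with hemin, against 49.7, 57.9, 38.5, 46.6 and 50.8 CPM untreated. The BLVRB change was 0.47 on the log2 scale (adjusted p = 0.0985) with all libraries and 0.57 (adjusted p = 0.0266) without G2. SLC48A1, a heme transporter of endosomes and lysosomes, had 0.61 (adjusted p = 0.119) and 0.71 (adjusted p = 0.0471). With G2 left out, the calls of BLVRB and SLC48A1 were both lost without C2, D2, F2, C1 or D1 and with a correction for base composition, and that of SLC48A1 also without E1 or without the filter on low counts.

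Genes of heme synthesis included 3 that were lower without G2 and 0 that were higher, of 14 tested, beside 5.13% lower and 5.44% higher over all genes. ALAS1, the rate-limiting enzyme, was not among them, with 32.02, 46.3, 46.6, 39.7 and 62.7 CPM with hemin against 63.9, 47.04, 61.1, 57.5 and 47.7 CPM untreated. G2 was the second highest of all 10 libraries, and the other 4 lay below every untreated library. The log2 fold change was -0.29 (SE 0.18, adjusted p = 0.339) and -0.42 without G2 (SE 0.18, adjusted p = 0.122). The 3 that passed without G2 were ABCB10, a transporter of the mitochondrial inner membrane, with -1.09 (adjusted p = 0.0247), TMEM14C, which helps porphyrin into mitochondria, with -1.004 (adjusted p = 0.0279), and CPOX, coproporphyrinogen oxidase, with -0.56 (adjusted p = 0.0359). With all libraries their values were -0.79, -0.85 and -0.51 (adjusted p = 0.130, 0.0838 and 0.0793). TMEM14C stood at 10.4 CPM in F2, against 43.1 to 69.4 CPM in the other hemin libraries and 70.1 to 108 CPM in untreated ones. All 3 calls were lost without D2 or F2 as well, and those of TMEM14C and CPOX also without A1 or C1, that of CPOX also without C2, D1 or E1.

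Ferritin transcripts did not differ beyond their spread. FTH1 had 1888, 1600, 2066, 1962 and 2088 CPM with hemin and 2218, 2015, 1981, 2146 and 1989 CPM untreated, a log2 fold change of -0.13 without G2 (95% interval -0.35 to 0.08, adjusted p = 0.432). For FTL the value was 0.16 (95% interval -0.09 to 0.42, adjusted p = 0.424). The transferrin receptor TFRC had 274, 247, 264, 194 and 263 CPM with hemin, against 332, 291, 361, 320 and 291 CPM untreated, and here all 5 hemin libraries, G2 included, lay below all untreated ones. On the log2 scale TFRC changed by -0.36 (SE 0.11, adjusted p = 0.0637) with all libraries and -0.38 (SE 0.11, adjusted p = 0.0230) without G2. In all, 1 iron gene was higher and 2 were lower without G2, of 14 tested, beside 5.44% higher and 5.13% lower over all genes tested. NCOA4, the receptor that delivers ferritin for degradation, fell by 0.52 (adjusted p = 0.0181), and IREB2, an iron-sensing RNA-binding protein that stabilises the TFRC transcript, rose by 0.48 (adjusted p = 0.0205). Each of these 3 calls was lost without D2, F2 or C1 as well, and that of TFRC also without the filter on low counts. The iron exporter SLC40A1 did not pass the filter on low counts.

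**Figure D4:**
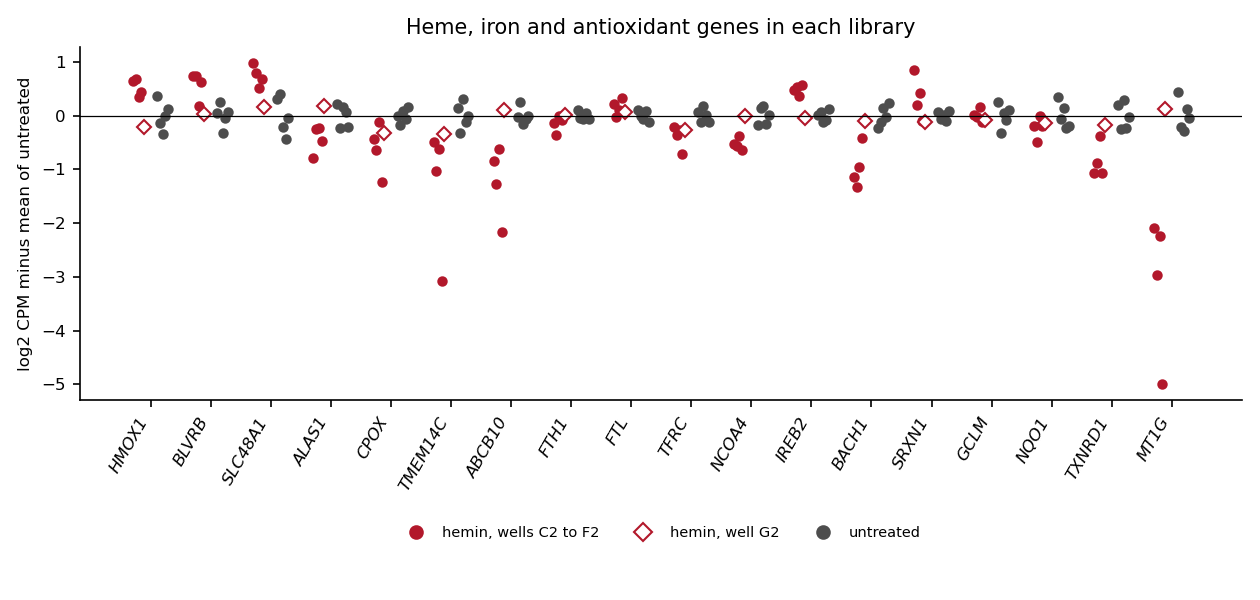
Level of heme, iron and antioxidant genes as log2 CPM minus the mean of the untreated libraries (y axis), with hemin libraries on the left of each gene (G2 as an open diamond) and untreated libraries on the right. G2 lies with the untreated libraries for HMOX1, BACH1 and MT1G, while the other 4 hemin libraries are apart from them for BACH1 and MT1G, and TFRC is lower in all 5.

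Of 13 heme sensors and heme-binding regulators, 1 was higher and 2 were lower without G2, beside 5.44% higher and 5.13% lower over all genes tested. BACH1 had 12.6, 11.04, 14.3, 20.8 and 25.9 CPM with hemin, against 23.9, 25.8, 30.6, 27.2 and 32.8 CPM untreated. The 4 hemin libraries other than G2 lay below all untreated ones, and the change of -0.96 on the log2 scale (SE 0.27) passed (adjusted p = 0.0167), against -0.76 with G2 (adjusted p = 0.0793). PGRMC1 and PGRMC2, membrane proteins that bind heme, moved apart, with -0.43 (adjusted p = 0.0361) and 0.63 (adjusted p = 0.0187) without G2. EIF2AK1, the heme-regulated kinase that phosphorylates the translation initiation factor eIF2, had a log2 fold change of -0.02 without G2 (95% interval -0.26 to 0.22). The calls of BACH1, PGRMC1 and PGRMC2 were lost without C2 or D2 as well, that of PGRMC2 also without C1, and that of PGRMC1 also without F2, A1, C1, D1 or E1, without the filter on low counts and with the correction for base composition.

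Of 21 NRF2 targets tested without G2, 1 was higher and 2 lower, beside 5.44% higher and 5.13% lower over all genes tested. SRXN1, which repairs oxidised peroxiredoxins, had 254, 161, 189, 131 and 130 CPM with hemin, against 148, 135, 142, 132 and 150 CPM untreated, a log2 fold change of 0.38 without G2 (adjusted p = 0.0428) and of 0.30 with it (adjusted p = 0.170). F2 and G2 lay below the lowest untreated library, and the call was lost when any library other than F2 was left out too, without the filter on low counts and with only the 9 libraries fitted. TXNRD1, thioredoxin reductase, had 274, 309, 436, 272 and 503 CPM with hemin, against 655, 480, 699, 489 and 563 CPM untreated. Its log2 fold change was -0.84 (SE 0.19, adjusted p = 0.00856) without G2 and -0.69 (adjusted p = 0.0581) with it, and its call without G2 held in all alternatives tried. GSR, glutathione reductase, had -0.73 (adjusted p = 0.0417) without G2, a call that was lost without C2, D2, F2, A1, C1, D1 or E1. NQO1, GCLM and SLC7A11, often used as readouts of NRF2, had log2 fold changes of -0.22, 0.01 and 0.10 without G2 (adjusted p = 0.395, 0.990 and 0.792). Outside this list, mitochondrial peroxiredoxin PRDX3 had -0.78 (adjusted p = 0.0195), lost without D2 or F2, and the ferroptosis suppressor AIFM2 had 0.61 (adjusted p = 0.0270), lost without C2, D2, C1, D1 or E1 or with the correction for base composition.

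Metallothioneins bind zinc and copper and are induced by metals. MT1G had 4.57, 2.49, 4.15, 0.611 and 21.2 CPM in hemin libraries, against 26.3, 16.7, 15.9, 21.2 and 18.98 CPM in untreated ones. G2 lay inside the untreated range and the other 4 far below it. The log2 fold change was -2.65 (SE 0.71, adjusted p = 0.0147) without G2 and -1.61 (adjusted p = 0.125) with it. MT1G was also low in B2, at 1.90 CPM, and in F4, at 0.422 CPM. SLC30A1, the zinc exporter of the plasma membrane, had 6.86, 4.63, 8.77, 3.67 and 6.73 CPM with hemin, against 11.2, 9.95, 15.3, 15.1 and 12.8 CPM untreated, and here G2 was as low as the others. The change was -1.07 on the log2 scale without G2 (adjusted p = 0.0233) and -1.04 with it (adjusted p = 0.0581). These were the 2 members that passed without G2, of 8 tested, beside 5.13% lower and 5.44% higher over all genes tested. MT1G was lost without D2 as well, and SLC30A1 without D2, F2, C1 or D1.

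Of 25 genes of cholesterol synthesis and its control, 6 were lower and 2 higher without G2, beside 5.13% and 5.44% of all genes tested, and CYP51A1 alone passed with all libraries. INSIG1, which holds the sterol-sensing complex in the endoplasmic reticulum, had 100, 113, 134, 87.4 and 239 CPM with hemin, against 198, 187, 251, 199 and 231 CPM untreated. G2 was the second highest of the 10 libraries, and the other 4 lay well below all untreated ones. The log2 fold change was -0.97 (SE 0.19, adjusted p = 0.00371) without G2 and -0.67 (adjusted p = 0.0637) with it, and the call without G2 held in all alternatives tried. MSMO1, a sterol oxidase, had 210, 197, 212, 221 and 218 CPM with hemin, against 312, 263, 264, 269 and 252 CPM untreated. For MSMO1, as for CYP51A1, all 5 hemin libraries lay below all untreated ones, and G2 was inside the range of the other hemin libraries.

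The log2 fold changes without G2 were -0.37 for MSMO1 (adjusted p = 0.0240), -0.42 for the synthase HMGCS1 (adjusted p = 0.0188) and -0.57 for the final reductase DHCR7 (adjusted p = 0.0187). With G2 they were -0.36, -0.42 and -0.48 (adjusted p = 0.0581, 0.0581 and 0.0745). The kinase MVK and the isomerase EBP were higher, with 0.78 and 0.61 without G2 (adjusted p = 0.0317 and 0.0216) and 0.62 and 0.49 with it (adjusted p = 0.124 and 0.0985). SREBF2, the main transcription factor of these genes, had 0.01 (adjusted p = 0.977). Of 10 genes of fatty acid synthesis, 2 were lower without G2, beside 5.13% lower and 5.44% higher over all genes tested. They were ACLY, which makes cytosolic acetyl-CoA, with -0.50 (adjusted p = 0.00861), and the transcription factor SREBF1 with -0.87 (adjusted p = 0.0280). Calls without G2 were lost for HMGCS1, MSMO1, DHCR7, MVK, EBP and SREBF1 when D2 was left out too. They were also lost without A1 for HMGCS1, MSMO1 and DHCR7, without F2 for HMGCS1, MVK and SREBF1, and without C2 for MSMO1, MVK, EBP and SREBF1. Those of HMGCS1 and MSMO1 were lost with the correction for base composition, that of MSMO1 without the filter on low counts, those of MVK and SREBF1 without C1 or E1, those of EBP and SREBF1 without D1, and that of ACLY without D2.

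Because the sterol genes are known to share control through their promoters, the 250 bases before the start of 3 of them are shown (RefSeq, GRCh38.p14). Capitals mark matches on either strand to the E-box CACGTG or to the CCAAT box, which reads ATTGG on the other strand. The windows are chr7:92134478-92134727 on the minus strand for CYP51A1, chr7:155297628-155297877 on the plus strand for INSIG1 and chr5:43313413-43313662 on the minus strand for HMGCS1.
CYP51A1: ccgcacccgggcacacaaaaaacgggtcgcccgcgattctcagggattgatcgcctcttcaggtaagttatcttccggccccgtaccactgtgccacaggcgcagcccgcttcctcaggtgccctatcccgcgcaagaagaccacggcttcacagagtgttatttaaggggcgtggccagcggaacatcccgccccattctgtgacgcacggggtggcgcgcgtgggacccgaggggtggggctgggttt
INSIG1: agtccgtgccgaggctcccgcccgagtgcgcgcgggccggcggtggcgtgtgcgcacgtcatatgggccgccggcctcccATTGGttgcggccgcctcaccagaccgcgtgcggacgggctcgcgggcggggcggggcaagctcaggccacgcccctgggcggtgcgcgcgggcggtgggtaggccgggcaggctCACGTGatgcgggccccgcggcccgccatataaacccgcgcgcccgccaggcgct
HMGCS1: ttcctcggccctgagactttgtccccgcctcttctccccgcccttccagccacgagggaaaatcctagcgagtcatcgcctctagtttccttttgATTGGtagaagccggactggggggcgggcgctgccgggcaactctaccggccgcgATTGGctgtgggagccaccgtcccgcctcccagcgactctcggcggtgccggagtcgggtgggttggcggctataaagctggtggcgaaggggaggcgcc
INSIG1 holds 1 E-box and 1 CCAAT box, HMGCS1 holds 2 CCAAT boxes before the start shown and 0 before the other start in the table, and these letters are not in the window of CYP51A1. Of 18 sterol genes with a promoter in the table, 16 (88.9%) hold a CCAAT box, against 37% of 27305 genes. An E-box was in 2 of the 18 (11.1%) and in 7.73% of all genes. The sterol regulatory element TCACNCCAC was in 1 of the 18 (5.56%), SREBF2, and in 1.09% of all genes. Only the 250 bases before each start were searched, on both strands, and a match is a description of the letters and not a binding site.

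The integrated stress response, in which phosphorylated eIF2 raises translation of the transcription factor ATF4, held 6 genes that were higher and 0 that were lower without G2, of 24 tested, beside 5.44% higher and 5.13% lower over all genes tested. The median log2 fold change of the list was 0.08, against -0.02 over all genes tested. GDF15, a stress cytokine, had 295, 258, 214, 192 and 123 CPM with hemin, against 184, 166, 135, 144 and 129 CPM untreated. G2 was the lowest of all 10 libraries and the other 4 were the highest. Its log2 fold change was 0.66 (SE 0.14, adjusted p = 0.00599) without G2 and 0.52 (adjusted p = 0.0637) with it, and the call without G2 held in all alternatives tried. ASNS, asparagine synthetase, had 175, 143, 121, 163 and 91.7 CPM with hemin, against 123, 90.0, 71.5, 56.9 and 61.5 CPM untreated, a log2 fold change of 0.90 (adjusted p = 0.0154) without G2 and 0.78 (adjusted p = 0.0674) with it. ATF4 itself had 675, 519, 371, 554 and 353 CPM with hemin, against 322, 408, 314, 300 and 325 CPM untreated.

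ATF4, ATF5, the leucine sensor SESN2 and the amino acid transporter SLC7A5 had 0.67, 0.84, 0.60 and 0.50 without G2 (adjusted p = 0.0152, 0.0148, 0.0294 and 0.0342). Other targets of ATF4 did not pass, with 0.30 for DDIT3 (adjusted p = 0.403), 0.01 for TRIB3 (adjusted p = 0.977) and -0.15 for PSAT1 (adjusted p = 0.641). The count fell to 2 without C2 and to 3 without D2 as well, and to 4 with the correction for base composition. ASNS and ATF4 were lost without C2, ATF4 and ATF5 without D2, and ATF5 without C1. SESN2 was lost without C2, D2, F2, A1, D1 or E1, SLC7A5 without C2, F2, B1, C1, D1 or E1, and both with the correction for base composition. SLC7A5 is also counted among aryl hydrocarbon receptor targets. There it was the gene that passed without G2, of 8 tested, beside 5.44% higher and 5.13% lower over all genes tested.

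In the unfolded protein response of the endoplasmic reticulum, 2 genes were higher and 4 lower without G2, of 17 tested, beside 5.44% higher and 5.13% lower over all genes tested. The chaperone HSPA5 and its partner SDF2L1 had 0.38 and 0.76 (adjusted p = 0.0189 and 0.00989), and the sensor product XBP1, the disulfide isomerase PDIA6, HERPUD1 and the ubiquitin ligase SYVN1 had -0.55, -0.55, -0.57 and -0.96 (adjusted p = 0.0135, 0.00874, 0.0272 and 0.0328). PDIA6 kept its call in all alternatives tried, and the other 5 lost theirs without D2, HSPA5, HERPUD1 and SYVN1 also without F2 or C1, HERPUD1 and SYVN1 without A1 or E1, HERPUD1 without C2 and SYVN1 without D1. Of 13 heat shock genes, HSP90AA1 and HSPA4 were higher without G2, with 0.37 and 0.54 (adjusted p = 0.0147 and 0.0277), both lost without C2 or F2 and HSPA4 also without D2, A1, C1 or D1.

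Immediate early genes, which growth factors and stress switch on within minutes, held 4 higher and 0 lower members without G2, of 27 tested, beside 5.44% higher and 5.13% lower over all genes tested. EGR1 had 120, 192, 148, 115 and 126 CPM with hemin, against 83.4, 121, 81.3, 89.6 and 88.2 CPM untreated. Here G2 was as high as the other hemin libraries, and among untreated libraries B1 overlapped them. The log2 fold change was 0.64 without G2 (adjusted p = 0.0152) and 0.60 with it (adjusted p = 0.0581). IER3 had 1312, 1169, 1090, 1338 and 777 CPM with hemin, against 875, 775, 695, 772 and 797 CPM untreated, a log2 fold change of 0.65 without G2 (adjusted p = 0.00759). IER2 and the ERK phosphatase DUSP5 had 0.54 and 0.55 (adjusted p = 0.0113 and 0.0334). Leaving out D2 ended the call of EGR1, leaving out C2 that of IER2, and leaving out C2, D2, C1, D1 or E1 that of DUSP5, while IER3 kept its call in all alternatives tried.

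Proteasome subunits, which form the main protease of the cell, had 9 higher and 3 lower members without G2, of 31 tested, beside 5.44% higher and 5.13% lower over all genes tested. PSMD3 had 337, 363, 317, 372 and 195 CPM with hemin, against 264, 229, 204, 236 and 227 CPM untreated, a log2 fold change of 0.58 (adjusted p = 0.00790). PSMC3, PSMC1 and PSMD4 had 0.77, 0.61 and 0.61 (adjusted p = 0.0125, 0.0164 and 0.00965). PSMB3 moved the other way, with 41.2, 48.4, 49.4, 40.95 and 82.9 CPM with hemin, against 89.2, 71.5, 82.5, 94.4 and 85.1 CPM untreated, a log2 fold change of -0.90 (adjusted p = 0.00478). For PSMD3 and PSMB3 G2 stood apart from the other 4 hemin libraries and on the untreated side. The list came to 3 higher and 2 lower without C2, and to 3 and 1 without D2. PSMD4 was lost without C2, PSMC3 without D2 and PSMC1 without D2 or F2, while PSMD3 and PSMB3 kept their calls in all alternatives tried.

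Genes of the ribosome and its assembly were counted by list, beside 5.44% higher and 5.13% lower over all genes tested, and the lists were not tested against each other. Of 27 biogenesis factors, 6 were higher and 1 lower without G2, among them nucleolin, NCL, with 0.67, fibrillarin, FBL, with 0.54, and WDR43 with 0.60 (adjusted p = 0.0113, 0.0114 and 0.0118). Of 83 cytosolic ribosomal protein genes, 2 were higher and 9 lower. RPL6 had 1541, 1474, 1630, 1696 and 2669 CPM with hemin, against 1847, 2593, 2591, 2260 and 2092 CPM untreated, so that G2 was the highest of all 10 libraries and the other 4 the lowest. Its log2 fold change was -0.52 without G2 (adjusted p = 0.00856) and -0.34 with it (adjusted p = 0.104). RPS15A and RPL38 had -0.77 and -0.47 without G2 (adjusted p = 0.0137 and 0.0128), and since ribosomal protein genes have many processed copies, their counts are uncertain. Of 76 mitochondrial ribosomal protein genes, 9 were higher and 3 lower, led by MRPL15 with 0.54 and MRPS25 with 0.62 (adjusted p = 0.0119 and 0.0166). Of 20 aminoacyl-tRNA synthetases, FARSA, SARS and YARS were higher with 0.72, 0.60 and 0.48 (adjusted p = 0.00599, 0.0148 and 0.0196), and HARS lower with -0.86 (adjusted p = 0.0188). Without D2, these lists came to 1 higher and 0 lower biogenesis factors, 0 and 1 cytosolic, and 1 and 0 mitochondrial ribosomal protein genes. Without C2 they came to 3 and 1, 1 and 8, and 0 and 1. Among the genes named here, RPL6 and FARSA kept their calls in all alternatives tried. NCL, MRPS25, SARS and YARS were lost without C2 or D2, MRPL15 without C2, WDR43 without D2, FBL without F2, RPS15A and RPL38 without D2 or F2, HARS without D2, F2 or C1, and MRPS25 and YARS also without C1.

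Genes of energy metabolism were counted by list, beside 5.44% higher and 5.13% lower over all genes tested. Of 23 genes of glycolysis and glucose uptake, 4 were lower and 0 higher without G2. Lactate dehydrogenase, LDHA, had 1466, 1323, 1349, 1693 and 2604 CPM with hemin, against 1531, 2230, 2499, 2473 and 2393 CPM untreated, with G2 the highest of all and the untreated library A1 inside the range of the other 4. Its log2 fold change was -0.60 without G2 (adjusted p = 0.0230) and -0.40 with it (adjusted p = 0.177). ENO1, PFKFB3 and LDHB had -0.48, -0.56 and -0.21 without G2 (adjusted p = 0.0272, 0.0336 and 0.0442). Of 18 targets of hypoxia-inducible factors, LDHA and the peptide hormone gene ADM passed without G2, ADM with 1.02 (adjusted p = 0.0495). Nuclear genes of oxidative phosphorylation held 3 higher and 2 lower members, of 37 tested. SDHC, a membrane subunit of succinate dehydrogenase that helps hold its heme, had 186, 147, 246, 97.2 and 292 CPM with hemin, against 414, 283, 512, 441 and 396 CPM untreated, a log2 fold change of -1.27 (adjusted p = 0.00874) without G2 and -1.08 (adjusted p = 0.0581) with it. The groups overlapped by G2 and the untreated library B1.

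The complex I subunit NDUFV1 and the Rieske protein UQCRFS1 had 0.76 and 0.34 (adjusted p = 0.0113 and 0.0402), and the ATP synthase subunit ATP5A1 had -0.47 (adjusted p = 0.0128). SDHC kept its call in all alternatives tried. ATP5A1 was lost without D2, NDUFV1 without F2, LDHA without C2, D2 or C1, and ENO1 without C2, D2, C1 or D1. PFKFB3 was lost without D2, F2, A1 or C1 or with the correction for base composition. LDHB, UQCRFS1 and ADM were each lost without C2, D2, E2, F2, A1, C1 or D1, LDHB and UQCRFS1 also without B1 and without the filter on low counts, UQCRFS1 and ADM also without E1, and LDHB also with the correction for base composition and with only the 9 libraries fitted.

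Proliferation and lineage genes are given beside 5.44% higher and 5.13% lower over all genes tested. Among 27 genes of mitosis, TOP2A, PLK1 and CCNA2 were higher without G2, with 0.48, 0.69 and 0.39 (adjusted p = 0.00870, 0.0100 and 0.0247), and PRC1 and KIF23 lower, with -0.64 and -0.58 (adjusted p = 0.0197 and 0.0233). E2F1 and MCM5 were the 2 that were higher of 24 genes of DNA replication, with 0.80 and 0.64 (adjusted p = 0.0113 and 0.0217). The intestinal transcription factor CDX2 had 44.6, 34.2, 37.8, 37.9 and 21.8 CPM with hemin, against 28.8, 20.8, 18.95, 19.98 and 20 CPM untreated, a log2 fold change of 0.83 without G2 (adjusted p = 0.0154). It was the 1 of 4 tested differentiation genes that passed. Beta-catenin, CTNNB1, had 270, 238, 280, 222 and 368 CPM with hemin, against 366, 380, 479, 395 and 354 CPM untreated, with G2 inside the untreated range. Its log2 fold change was -0.64 (adjusted p = 0.00599) without G2, and that of the Wnt feedback gene AXIN2 was -1.20 (adjusted p = 0.0151), the 1 of 14 Wnt genes that passed. CTNNB1 and the splicing factor ESRP1, with -0.60 (adjusted p = 0.0197), were the 2 that were lower of 10 epithelial genes. Among 22 p53 targets, GDF15 was higher and CCNG1 lower, with -0.89 (adjusted p = 0.00874). TOP2A, CTNNB1 and CCNG1 kept their calls in all alternatives tried. PLK1 and E2F1 were lost without D2, CDX2 and AXIN2 without C2, KIF23 without C2 or D2, PRC1 without C2, D2 or C1, ESRP1 and MCM5 without C2, D2, C1 or D1, and CCNA2 without C2, D2, C1, D1 or E1.

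Of 20 genes of autophagy and lysosomes, 2 were higher and 3 lower, beside 5.44% higher and 5.13% lower over all genes tested. LAMP1 and GABARAPL1 were higher without G2, with 0.65 and 0.54 (adjusted p = 0.0117 and 0.0292), and MAP1LC3B, CTSL and CTSB lower, with -0.61, -0.84 and -0.49 (adjusted p = 0.0166, 0.0164 and 0.0327). Among 298 zinc finger genes named ZNF, 8 were higher and 14 lower, against 5.44% and 5.13% of all genes, so the list held no larger share of calls than all genes did. LAMP1 was lost without C2 or D2, MAP1LC3B without D2 or F2, CTSL without D2, F2 or C1, CTSB without D2, F2, A1, B1 or C1, and GABARAPL1 without C2, D2, F2, A1, C1, D1 or E1 or without the filter on low counts. Of the 148 genes of the lists that were called without G2, 16 kept the call in every alternative tried, and 120 lost it when D2 was left out too.

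Among genes called without G2 and not with it, 10 with the smallest p were taken as a set by rule. This choice favours genes in which G2 differs from the other 4 hemin libraries, so that difference is no separate result here. DONSON, which takes part in starting DNA replication, had 51.5, 43.8, 35.5, 44 and 12.95 CPM with hemin, against 20.5, 22.2, 24.5, 21.8 and 19.5 CPM untreated. G2 was the lowest of the 10 libraries and the other 4 the highest, and the log2 fold change was 1.02 (adjusted p = 0.00311) without G2 and 0.80 (adjusted p = 0.0581) with it. SAT1, which acetylates spermidine and spermine, had 369, 400, 475, 378 and 754 CPM with hemin, against 482, 733, 679, 738 and 795 CPM untreated, a log2 fold change of -0.75 (adjusted p = 0.00352) without G2. SERF2 and PAPD7 (now TENT4A), a poly(A) polymerase, had -0.996 and -1.31 (adjusted p = 0.00311 and 0.00391), and INSIG1 is given above. The other 5 were LINC01001, LOC100996909, LOC643387, LOC102724594 and the readthrough RPL36A-HNRNPH2. LINC01001 was at 0 in C2, D2, E2 and F2 and at 3.11 CPM in G2, against 1.81 to 6.73 CPM in untreated libraries. LOC102724594 is a copy of U2AF1, and RPL36A-HNRNPH2 overlaps the genes it joins, so both values are uncertain. U2AF1 itself was at -0.70 (adjusted p = 0.00874).

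Fold changes varied with base composition across genes, in hemin libraries and in some without hemin alone. GC content was taken over the last 500 bases of the longest GENCODE transcript of each gene (a protein-coding one where there is any), which 97.3% of the genes tested had. Without G2, the median log2 fold change was -0.13, -0.09, -0.06, 0.04 and 0.15 in 5 equal groups of genes, numbered 1 to 5 from the lowest to the highest GC content. With all libraries it was -0.11, -0.08, -0.04, 0.04 and 0.14, so the trend was present with G2 as well. By library, the median difference from untreated in groups 1 and 5 was -0.15 and 0.13 in C2, -0.10 and 0.17 in D2, -0.02 and 0.06 in E2, -0.19 and 0.32 in F2, and -0.04 and 0.10 in G2. For B2 and F4 the difference was instead taken from the other libraries of their own group. It was -0.19 and 0.25 in the butyrate library B2, which had no hemin, and -0.10 and 0.18 in F4. In group 1, 65 genes were called higher and 144 lower without G2, and in group 5, 201 and 40. The median GC content was 47.6% for genes called higher, 37.8% for genes called lower and 41.4% for all genes tested. With a correction of each library for base composition, 621 genes were higher and 563 lower without G2, of which 983 in all were among the 1205 called without the correction. The part of base composition in single calls was not tested beyond this.

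**Figure D5:**
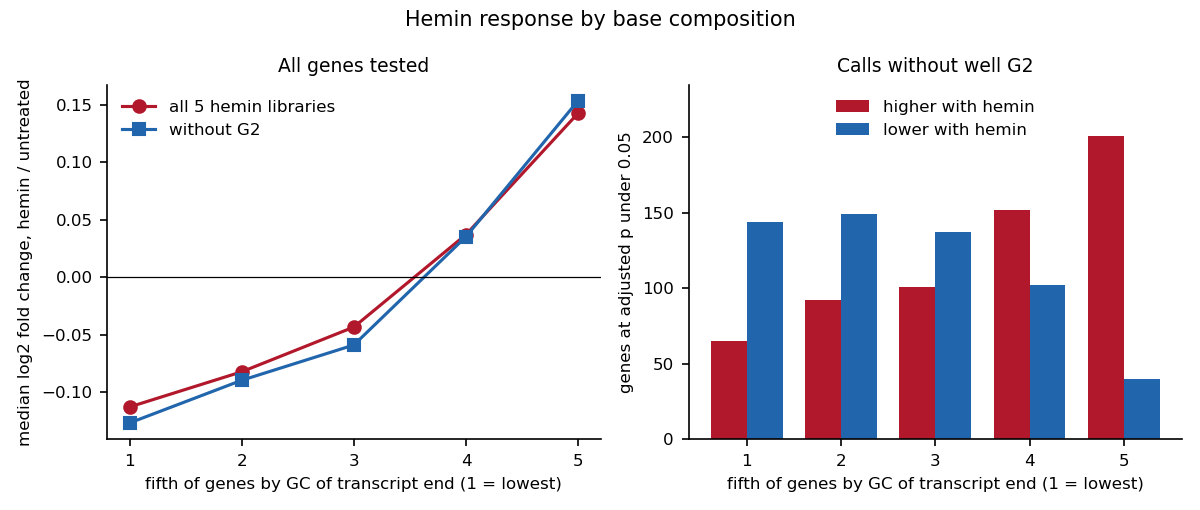
Median log2 fold change of hemin over untreated (left, y axis) and number of genes called without G2 (right, y axis) in 5 equal groups of genes by GC content of the transcript end (x axis, 1 is the lowest). The median without G2 goes up with GC content, with -0.13 in group 1 and 0.15 in group 5, and higher calls outnumber lower calls in groups 4 and 5.

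Whether the hemin response differed between the media was tested directly. With all libraries, edgeR called 0 genes (0%), with 1508 at an unadjusted p under 0.05, and DESeq2 called 1 in each direction. Without G2 there were 51 genes with a higher and 49 with a lower response in Medium 1 (0.448% and 0.43%, or 0.878% in all). The smallest adjusted p with all libraries was 0.0624, for EGR1, with a log2 fold change of 0.60 in Medium 1 and -0.54 in Medium 2 and a difference of 1.14 (SE 0.23). FHL3, GDF15, SIAH2 and SWI5 came next, with differences of -1.64, 0.91, 0.73 and 1.67 (adjusted p = 0.158 for each). In Medium 2 on its own, hemin gave 0 calls in edgeR and in DESeq2, with 855 genes at an unadjusted p under 0.05. There, the log2 fold changes of CYP51A1, INSIG1, HMOX1, TFRC and ASNS were -0.17, -0.17, -0.08, -0.06 and 0.27, and the differences from Medium 1 with all libraries did not pass the threshold (adjusted p = 0.274, 0.417, 0.446, 0.379 and 0.500).

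Hemin given together with 1 µM kynurenine in Medium 1 was compared with the same untreated libraries, so its values share them and stand here side by side only. It gave 3 higher and 0 lower genes (0.0266%), the aryl hydrocarbon receptor targets CYP1A1, CYP1B1 and TIPARP, and 561 genes at an unadjusted p under 0.05. DESeq2 called 3 higher and 1 lower. The log2 fold changes of SWI5, CYP51A1, HMOX1, TFRC, TXNRD1 and ASNS were 0.87, -0.21, 0.22, -0.26, 0.06 and 0.35, with adjusted p between 0.917 and 0.983, against 1.37, -0.58, 0.39, -0.36, -0.69 and 0.78 with hemin alone.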

How the data were processed

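RNA from HCT116 spheroids was sequenced from the 3' end with molecular identifiers (QuantSeq 3' mRNA-Seq FWD), per the labels' protocols. The authors deposited 1 table of estimated counts per gene, for 29744 genes and 60 libraries, in which 10.1% of the deposited count values are not whole (tolerance 1e-06). Per the submitters' processing notes, STAR and Salmon 1.5.2 were used with GRCh38, beside cutadapt 3.4, UMI-tools 1.1.2 and FastQC 0.11.9. How reads shared by near-identical genes were divided is not given in the sources used here.

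Here the expected counts were rounded and tested with edgeR 4.0.16 (R 4.3.3, limma 3.58.1): filterByExpr (min.count 10, min.total.count 15), TMM scaling, and 1 quasi-likelihood model of all 12 groups and 60 libraries with 48 residual degrees of freedom. Adjusted p-values (Benjamini-Hochberg) run over all genes tested, at a threshold of 0.05. CPM values use TMM-scaled totals. The columns carry wells but no replicate numbers, so they were mapped to groups only, and 0 columns were left out. The method was tested on simulated data. Alternatives were RLE scaling, no filter, DESeq2 1.42.0, voom with quality weights, robust dispersion, a plate row term, thinning to equal depth, a correction for GC content, smaller sets of libraries and leaving out each library. With G2 left out, robust dispersion, the plate row term, thinning and the fit of Medium 1 libraries alone were not tried. By rule, the named genes are 15 heme, iron and stress genes, those called with all libraries, 10 with the smallest p called only without G2, up to 3 called members of each gene list by p, and 5 with the smallest p for the difference between media. Further list members and other genes were named after their values were seen, and some genes are not reported here. The members and lists were chosen with earlier results of these data known. Depth limits genes of low count. Gene positions and promoters are RefSeq, GRCh38.p14, and symbols matched for 10306 of the 11298 genes tested, with 767 more matched by older symbols.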

Additional observations from a re-analysis of the deposited data

Results flagged for a closer look

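In 19 of 252 groups of 5 libraries, the lowest or highest library stood apart, with a gap to its neighbour above 0.71 of the group's range. The groups were taken over the named genes in log2 CPM. They also covered total counts, genes detected, the share of the most abundant genes and the means over the higher and lower sets. All 19 flagged were of genes. Chance flags about 1 group in 20 where groups are not chosen on their values. Many of the named genes were chosen by their p without G2, so that rate is no standard here. In each sentence the gap's share of the range comes first and the CPM of the library and of the other 4 follow.

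The hemin library G2 stood apart in 5. For DONSON the share was 0.727, with 12.95 CPM against 35.5 to 51.5 CPM. For LINC01001 it was 1, with 3.11 CPM against 0 CPM. For PSMB3 it was 0.736, with 82.9 CPM against 40.95 to 49.4 CPM. For PSMD3 it was 0.753, with 195 CPM against 317 to 372 CPM. For RPL6 it was 0.764, with 2669 CPM against 1474 to 1696 CPM.

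Among the other hemin libraries, D2 stood apart for E2F1 (0.741), with 30.98 CPM against 19.7 to 22.2 CPM. F2 stood apart for TMEM14C (0.743), with 10.4 CPM against 43.1 to 69.4 CPM.

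The untreated library B1 stood apart for 6 genes. They were ACSL1 (0.735), at 15.8 against 29.95 to 37.5 CPM, and ATF4 (0.741), at 408 against 300 to 325 CPM. EGR1 (0.755) was at 121 against 81.3 to 89.6 CPM, and LINC01001 (0.808) at 1.81 against 5.36 to 6.73 CPM. PRDX3 (0.848) was at 425 against 532 to 553 CPM, and SREBF1 (0.813) at 60.6 against 75.6 to 79.5 CPM. The untreated library A1 stood apart for CDX2 (0.778), at 28.8 against 18.95 to 20.8 CPM, and LDHA (0.767), at 1531 against 2230 to 2499 CPM. It also did so for RPL38 (0.745), at 1106 against 1185 to 1214 CPM, and SLC7A5 (0.839), at 205 against 136 to 145 CPM. The untreated library D1 stood apart for SARS (0.733), at 59.3 against 69.8 to 74.0 CPM, and E1 for SNHG1 (0.75), at 223 against 175 to 186 CPM.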

How the results depend on the processing

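With all 5 hemin libraries, 5 genes were higher and 10 lower. The counts were 620 and 585 without G2, 132 and 123 with only the 10 libraries fitted, 924 and 775 with only the 9 without G2, 104 and 121 without the filter, 282 and 286 in DESeq2, 810 and 817 with voom quality weights, and 357 and 339 without B2 and F4. They were 8 and 11 with RLE scaling, 12 and 14 with thinning, 13 and 14 with the GC correction, 1 and 2 with robust dispersion, 1 and 0 with plate row, and 0 and 0 with only Medium 1 fitted. Leaving out 1 library gave 0 to 620 and 0 to 585. With G2 left out, voom gave 1270 and 1324 and leaving out 1 more gave 127 to 760 and 98 to 751. The difference between media gave 51 and 49 without G2, 1 and 1 without the filter, 1 and 1 in DESeq2, and 0 to 51 and 0 to 49 when leaving out 1 library. Hemin plus kynurenine gave 1 lower gene in DESeq2. The difference in total count (271804) ran from 161377 to 406735, that in genes detected (164) from 66.2 to 276, and that in the share of the top 50 genes (-0.383 points) from -1.04 to 0.0699 when leaving out 1 library. No gene past the threshold in either setting changed direction, while GCLM, EIF2AK1, SLC7A11, COL1A1 and EPOR, which did not pass, changed sign in some. The cause of these changes was not tested. No paired analysis was possible because the columns carry no replicate numbers.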
